A study of Rattus norvegicus with 15 samples.

Results

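Collateral arteries of the spontaneously hypertensive rat (SHR), which is inbred and becomes hypertensive with age, were compared with collateral arteries of the Wistar Kyoto rat (WKY), its usual comparison strain with normal pressure. The comparison rested on 8 of the 15 arrays of the study, 4 labelled SHR collateral and 4 labelled WKY collateral, chosen by strain and vessel type in the sample titles. The vessels were mesenteric arteries, the arteries that feed the gut, and a collateral was made by occluding the arteries beside it, so that it carried blood for its neighbours. The other 7 arrays, 4 SHR control and 3 WKY control, came from arteries labelled control, and they are used here as a second view of the same strain difference. Total RNA was measured, with no treatment other than the occlusion named in the labels. The age and sex of the rats, the time from occlusion to sampling, and whether a rat gave more than 1 array were not stated in the labels used. The p-values therefore measure only the spread between these samples, which may be partly technical. The series asks what could lie behind poorer collateral growth in SHR, and this comparison sets the growing vessels of both strains side by side.

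When a neighbouring artery is closed, flow through the bypass rises, and the endothelium senses the added shear stress. Endothelial cells then display adhesion molecules and release factors that attract monocytes, while smooth muscle cells and matrix are rebuilt as the lumen widens. Genes of the early response are among the quickest to answer flow, stretch, thrombin and injury: transcription factors of the AP-1 (Fos, Jun), EGR, KLF and NR4A families are switched on through kinases and factors already present in the cell. Adhesion molecules such as VCAM-1 and E-selectin are classic targets of the factor NF-kB in endothelium.

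In SHR collaterals Nr4a3, Klf6, Egr2 and other early-response factors, the thrombin receptor F2r, the adhesion molecules Vcam1, Icam2 and Sele, and Tgfb3 and Lox had lower signal than in WKY collaterals. Cd74, RT1-Da and RT1-A3 of antigen presentation, the macrophage gene C1qb, the mast cell protease Cpa3 and the heme-degrading enzyme Hmox1 had higher signal. Of 6512 probe sets tested with limma, 0 passed a Benjamini-Hochberg adjusted p of 0.05 in the collaterals alone (0%), with 0.0783 as the smallest adjusted p. Below an unadjusted p of 0.05 lay 496 probe sets, 261 higher and 235 lower in SHR, where 325.6 would be counted if no probe set differed. The same strain difference averaged over collateral and control arteries, a test on all 15 arrays, called 58 probe sets, 25 higher and 33 lower in SHR. Below, a gene is said to have passed, to have risen or to have fallen only where that averaged test called it, and a value for the collaterals alone is a description with its standard error. The averaged test includes the 8 collateral arrays, so it is no independent check of them. It also treats control and collateral arrays as independent, which the labels do not settle. Of its 58 calls, 27 held in every fit that left out 1 array. Those of Nfkb1 (3 of 15 such fits), Lox, Icam1, Arc and Blvra (4 of 15 each) and Ptprm, Thbs4, Cma1 and Apod (5 of 15 each) held in the fewest among the genes named below.

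Values below are the deposited array signals, and differences are SHR minus WKY on the log2 scale, so that a negative value means a lower signal in SHR. Where a gene had several probe sets, counts over lists use the one with the highest mean signal. One array, SHR collateral 3, stood apart. Its Spearman correlation with the other 14 arrays lay between 0.496 and 0.657, while those 14 correlated with each other between 0.805 and 0.931, and its mean log2 signal of the spike-in controls was 17.4 against 13.3 to 15.8 elsewhere. Without it the collateral comparison again called 0 probe sets, with a smallest adjusted p of 0.0668 and 339 probe sets at an unadjusted p under 0.05. A sign of RNA quality also moved with strain: the ratio of signal at the 3' end to that at the 5' end of the actin and Gapdh messages, averaged on the log2 scale, was 2.06, 1.64, 1.86 and 1.83 on SHR collaterals 1 to 4 and 2.10, 2.44, 2.62 and 2.49 on WKY collaterals 1 to 4. The groups did not overlap, and the difference of -0.568 had an exact two-sided permutation p of 0.0286, the smallest that 4 against 4 arrays allow. With this ratio as a covariate, the collateral comparison called 0 probe sets and the averaged test 3, all lower in SHR. Medians with this covariate are given below for several lists, and that of all genes was 0.15. Single genes are given without it.

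The orphan nuclear receptor Nr4a3, an early gene induced by growth factors and shear, had the lowest strain difference among the genes named here. Its signals were 263, 2115, 257 and 687 on SHR collaterals 1 to 4 and 15340, 8801, 6860.1 and 10214 on WKY collaterals 1 to 4. Every SHR collateral lay below every WKY collateral, and the log2 difference was -4.14 (SE 0.78), a ratio of 17.6 in favour of WKY, with an adjusted p of 0.0783 by limma. Without SHR collateral 3 it was -3.76, and over both vessel types Nr4a3 fell by 3.72 (SE 0.57, limma adjusted p = 0.00484). A second Nr4a3 probe set gave a smaller collateral difference of -1.29 (SE 0.67) that did not pass in either test. Nr4a1, its close relative, had an overlapping difference of -1.23 (SE 0.59), and Nr4a2 was at 0.16.

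Klf6, a zinc finger factor of injured vessel wall, showed 443, 1909, 1246 and 2175 on SHR collaterals and 10843, 2726, 6075 and 3830.5 on WKY collaterals. The groups were separate, at -2.06 (SE 0.48) in the collaterals, and Klf6 fell over both vessel types by 2.25 (SE 0.35, limma adjusted p = 0.00484), with no overlap over all 15 arrays. Egr2, a growth-factor-induced factor, read 1844, 5082, 2029.6 and 4661 on SHR and 14478, 5558, 5214 and 10461 on WKY collaterals. Its collateral difference was -1.41 (SE 0.39), again without overlap, and it passed over both vessel types at -1.65 (SE 0.29).

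Egr1, the best known shear-induced factor of the family, was read by 4 probe sets that did not all behave alike. On the probe set that passed, signals were 1397, 7668, 1639 and 2572 in SHR and 18271, 8808, 9124 and 8167 in WKY collaterals, with the SHR arrays below all WKY arrays at -2.01 (SE 0.50) and a difference over both vessel types of -1.96 (SE 0.37). A second Egr1 probe set had -1.75 (SE 0.54) with overlap, and the others -0.88 (SE 0.64) and 0.05 (SE 0.39). Klf9, a factor that also answers glucocorticoids, passed on 1 of its 2 probe sets at -0.99 (SE 0.21) and stood at -1.07 (SE 0.29) in the collaterals without overlap. Klf10 and Klf4 had collateral differences of -1.17 (SE 0.40) and -1.24 (SE 0.62), both with overlapping arrays, and Klf4 moved to -0.51 without SHR collateral 3.

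The list of EGR, KLF and NR4A factors held 11 tested genes. Of these, 6 were lower in SHR at an unadjusted p under 0.05, where 4.1% of all 3825 genes were, and 4 were lower with no overlap between the strains, against 1.73% of all genes. None was higher at that p, and on these probe sets 3 of the 11 fell over both vessel types (Nr4a3, Klf6 and Egr2), where 0.575% of all genes did. The list's median difference was -1.23, and -0.84 without SHR collateral 3, beside 0.07 and -0.01 for all genes. In control arteries, measured on other arrays that may come from the same rats, the median was -1.29, beside 0.01 for all genes. There 7 of 11 were lower at the same unadjusted p, where 102 of all 3825 genes were.

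AP-1 is a dimer of Fos and Jun proteins that drives growth and repair genes. All 7 AP-1 genes on the array were tested: 4 were lower in SHR collaterals at an unadjusted p under 0.05, against 4.1% of all genes, 0 were higher, and the median was -0.91, or -0.92 without SHR collateral 3. Fosl1, which encodes the Fra-1 partner, gave 87.4, 155, 280.1 and 62.5 on SHR and 344, 730.4, 609.7 and 461 on WKY collaterals. These groups did not overlap at -2.05 (SE 0.55), yet Fosl1 did not pass over both vessel types (limma adjusted p = 0.152), with a control difference of -0.61. Jun was at -1.48 (SE 0.65), Atf3 at -1.53 (SE 0.69) and Fos at -0.91 (SE 0.42), each with overlapping arrays. Among the collaterals, WKY collateral 1 was the brightest array for Jun and Atf3, at 7057 and 20031, against 850.1 to 1417 and 1543 to 4560 on the other WKY collaterals. Without SHR collateral 3, 1 of the 7 stayed under an unadjusted p of 0.05, where 104 of all 3825 genes were lower at that p.

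Early-response genes also encode their own brakes. Dusp1, a phosphatase that switches MAP kinases off, read 1249, 3724, 1620.3 and 2694 on SHR and 6524, 5619, 5838 and 6327 on WKY collaterals. Its WKY values were close together and all above SHR, the difference was -1.51 (SE 0.38), and over both vessel types Dusp1 fell by 1.75 (SE 0.28, limma adjusted p = 0.00484). The other Dusp1 probe sets had -1.24 and -0.87 and did not pass. Pde4b, a cyclic AMP phosphodiesterase, had on 1 of its 4 probe sets -1.92 (SE 0.48) in the collaterals and -1.81 (SE 0.35) over both vessel types. Ccn1, a secreted matrix protein of the early response, was at -1.93 (SE 0.70) with overlap, and -1.14 without SHR collateral 3. In the wider list of 20 feedback and other early genes, 18 lay below 0, with a median of -0.39, or -0.54 without SHR collateral 3 and -0.67 with the 3' to 5' covariate. Of these, 4 were lower at an unadjusted p under 0.05, against 4.1% of all genes. Dusp1 and Arc, a gene best known from neurons, fell over both vessel types, where 0.575% of all genes did.

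**Figure D1:**
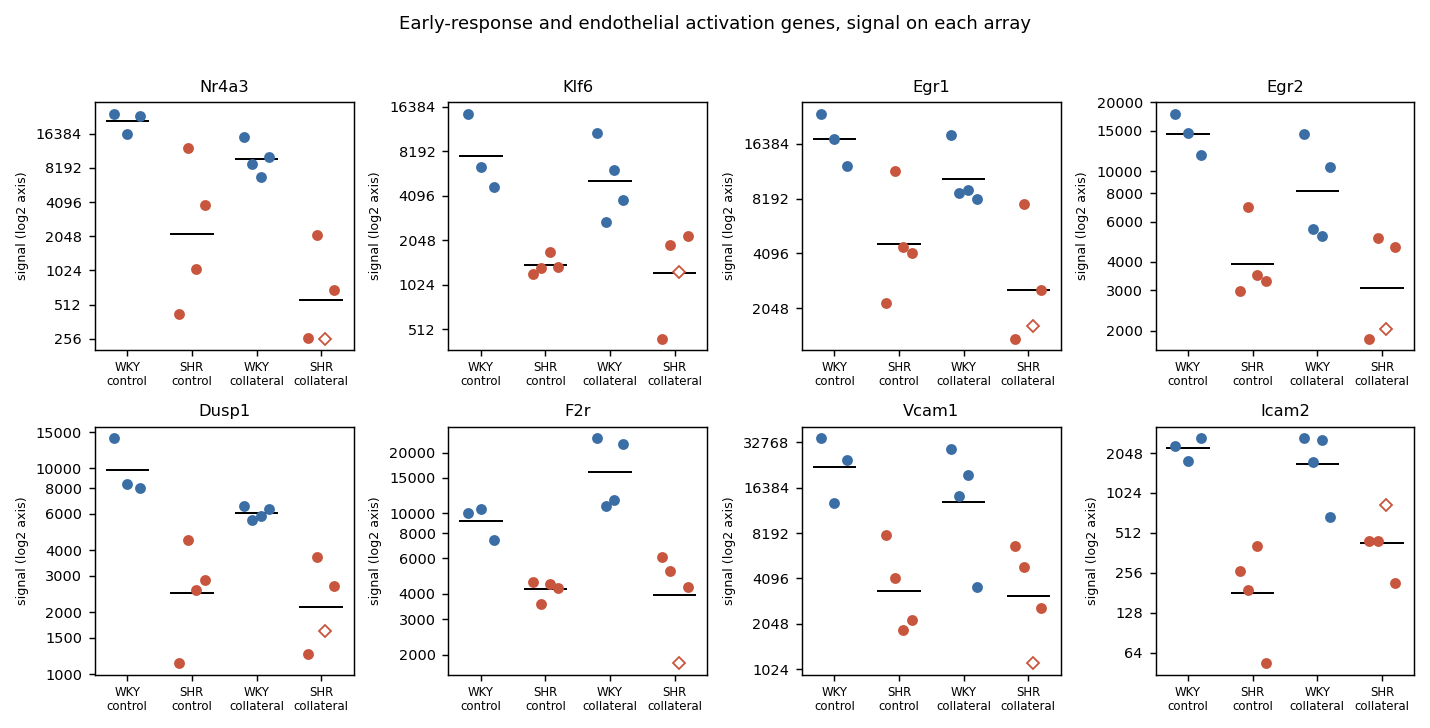
Deposited signal of 8 genes on each array (vertical axis, log2 scale) in WKY control, SHR control, WKY collateral and SHR collateral arteries; each point is an array, the open diamond is SHR collateral 3 and the line is the mean of the log2 signals. For Nr4a3, Klf6, Egr1, Egr2, Dusp1 and F2r all 4 SHR collaterals lie below all 4 WKY collaterals, while Vcam1 and Icam2 overlap, Icam2 only through SHR collateral 3 at 824 and WKY collateral 4 at 672.

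The bases before the start of 5 of these genes are shown because they hold binding motifs of factors that drive early and NF-kB-dependent genes: the CArG box of serum response factor, the cyclic AMP response element (CRE, TGACGTCA), the AP-1 site (TGANTCA) and the NF-kB site. Each run is the 250 bases before the gene's start in the RefSeq table of build GRCr8, read 5′ to 3′ along the gene's strand, with motif matches on either strand in capitals.
Egr2 (chr20:21054442-21054691, minus strand, 1 CArG box): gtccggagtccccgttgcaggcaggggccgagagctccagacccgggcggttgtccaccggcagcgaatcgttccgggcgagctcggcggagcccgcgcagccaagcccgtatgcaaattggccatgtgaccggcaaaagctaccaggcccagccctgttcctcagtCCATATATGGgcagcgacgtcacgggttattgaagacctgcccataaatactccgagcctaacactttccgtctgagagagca
Klf6 (chr17:69458479-69458728, minus strand, 1 CArG box): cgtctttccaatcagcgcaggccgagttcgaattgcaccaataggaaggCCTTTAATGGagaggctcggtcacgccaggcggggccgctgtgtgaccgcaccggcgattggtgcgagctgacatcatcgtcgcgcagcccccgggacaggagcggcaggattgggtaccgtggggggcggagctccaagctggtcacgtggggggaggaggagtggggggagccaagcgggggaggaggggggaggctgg
Dusp1 (chr10:17184603-17184852, plus strand, 1 CRE): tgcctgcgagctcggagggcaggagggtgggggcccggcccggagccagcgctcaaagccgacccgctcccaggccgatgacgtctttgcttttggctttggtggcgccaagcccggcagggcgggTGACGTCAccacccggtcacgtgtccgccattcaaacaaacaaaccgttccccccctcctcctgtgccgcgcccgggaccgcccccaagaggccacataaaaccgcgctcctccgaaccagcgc
F2r (chr2:28620580-28620829, minus strand, 1 AP-1 site): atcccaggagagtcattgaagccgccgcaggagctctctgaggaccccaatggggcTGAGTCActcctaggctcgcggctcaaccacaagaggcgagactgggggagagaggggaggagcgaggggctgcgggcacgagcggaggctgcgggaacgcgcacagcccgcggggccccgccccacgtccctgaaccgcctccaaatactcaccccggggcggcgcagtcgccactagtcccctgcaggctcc
Vcam1 (chr2:206742784-206743033, minus strand, 1 NF-kB site): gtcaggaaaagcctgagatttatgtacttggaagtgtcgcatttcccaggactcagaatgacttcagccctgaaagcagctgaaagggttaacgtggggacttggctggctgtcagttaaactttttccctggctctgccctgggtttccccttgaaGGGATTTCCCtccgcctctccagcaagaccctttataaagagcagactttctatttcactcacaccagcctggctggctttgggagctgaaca

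Of the 18 tested AP-1, EGR, KLF and NR4A genes, 12 had a promoter in that table; Atf3, Egr3, Fos, Jun, Klf10 and Nr4a3 had none. A CArG box was found in 3 of the 12 (25%), those of Egr1, Egr2 and Klf6, against 1.5% of all 33469 promoters of the same length and 1.62% of the 3150 promoters of tested genes. The CRE was found in 1 of 12 (Jund) against 1.59% of all promoters, the AP-1 site in 1 of 12 (Klf9) against 6.34%, and the NF-kB site in 2 of 12 (Egr4 and Nr4a1) against 6.33%. The motifs do not overlap in the runs shown. A match describes letters in this window and says nothing of whether a factor was bound in these vessels.

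F2r had the smallest collateral p of all probe sets. It encodes protease-activated receptor 1, through which thrombin acts on endothelium and smooth muscle. Its signals were 6066, 5184, 1815 and 4309 on SHR collaterals and 23516, 10938, 11645 and 22040 on WKY collaterals. SHR was lower on every array at -2.02 (SE 0.34, unadjusted p = 1.33e-05, limma adjusted p = 0.0783), and at -1.64 without SHR collateral 3, which was the dimmest array. Control arteries gave 4601, 3571, 4452 and 4289 in SHR and 9999.5, 10474 and 7402 in WKY, a difference of -1.13. F2r fell over both vessel types by 1.57 (SE 0.25, limma adjusted p = 0.00484), and no SHR array of either vessel type reached any WKY array.

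Adhesion molecules let leukocytes slow down and stick to endothelium. Vcam1, which binds monocytes and lymphocytes, read 6754, 4912, 1124 and 2627 on SHR and 29646, 14468, 19794 and 3624 on WKY collaterals. WKY collateral 4 lay within the SHR range, so the groups overlapped at -2.07 (SE 0.62), and Vcam1 passed over both vessel types at -2.40 (SE 0.46, limma adjusted p = 0.0121). Icam2, a constitutive endothelial ligand of leukocyte integrins, was at 445, 443, 824 and 215 in SHR and 2643, 1738, 2590.3 and 672 in WKY. The groups overlapped at -1.96 (SE 0.57) because SHR collateral 3 was above WKY collateral 4; without SHR collateral 3 they were separate, at -2.27. In control arteries its difference was -3.62, and it was called there as well as over both vessel types (-2.79, SE 0.42).

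E-selectin (Sele), which appears on activated endothelium and makes leukocytes roll, read 66.4, 108, 87.2 and 74.9 on SHR and 689, 269, 479.9 and 144 on WKY collaterals. The strains did not overlap at -2.03 (SE 0.76), but 2 SHR collaterals were below the 20th percentile of their own array, so the SHR level is close to background, and Sele did not pass over both vessel types (limma adjusted p = 0.281). Icam1, the inducible partner of beta-2 integrins, was at -0.96 (SE 0.41) with overlap and passed over both vessel types at -1.33 (SE 0.31) on 1 of 2 probe sets. Of the 9 tested adhesion genes 4 were lower in SHR collaterals at an unadjusted p under 0.05 and 0 higher, against 4.1% and 3.66% of all genes. The median was -0.86, or -1.03 without SHR collateral 3 and -1.80 with the 3' to 5' ratio as a covariate, and 3 of the 9 lay above 0. Pecam1, a junction protein of all endothelium, was at 0.66, and Selp, P-selectin, at -0.86, neither under that p.

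The factors upstream of these molecules included Nfkb1, the p50 subunit of NF-kB, with 785, 516, 239.8 and 1218 on SHR and 1728, 1622, 2015 and 1317 on WKY collaterals. Nfkb1 arrays did not overlap at -1.49 (SE 0.38), and it passed over both vessel types at -1.23 (SE 0.28), though not with replicates as a random block (limma adjusted p = 0.0599) or with quantile normalization (0.133). Irf1, an interferon-induced factor, overlapped at -1.29 (SE 0.40) and passed at -1.66 (SE 0.29), though its other probe set was at 0.28. Among 11 tested NF-kB, IRF and STAT genes the median was -0.24, or -0.39 without SHR collateral 3. At an unadjusted p under 0.05, 2 were lower and 1 higher (Stat6, 1.35), against 4.1% and 3.66% of all genes. The inhibitor Nfkbia was at -0.66 and Ccl2, the chemokine that draws monocytes, stood at -0.64, both with overlapping arrays. Ptgs2, the inducible prostaglandin synthase, was at -2.27 (SE 0.67) on one probe set and 0.38 on the other.

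Endothelial markers lay on both sides of 0. Of 13 tested markers, 8 lay below 0 and 5 above, with a median of -0.31, or -0.27 without SHR collateral 3. Their summed signal was 15969, 15150, 15855 and 10169 on SHR collaterals and 25476, 21331, 22691 and 18153 on WKY collaterals, with no overlap. Bright genes weigh most in such a sum. Esm1, a member of the list, read 2018, 2924, 1854 and 1573 on SHR and 7820, 3859, 3324 and 8275 on WKY collaterals. It gave 8275 of the 18153 on WKY collateral 4, so the lack of overlap depends on Esm1. Vwf (0.09), Kdr (0.46), Egfl7 (-0.05) and Nos3 (-0.31), which mark endothelium broadly, were not under an unadjusted p of 0.05, while Sele, Icam2 and Esm1 were lower and Flt1 higher at that p. Esm1, a secreted product of endothelial tip cells, was at -1.40 (SE 0.39), and Edn1, the vasoconstrictor endothelin, at -1.30 (SE 0.62), both without overlap. Flt1, a VEGF receptor, was at 1.51 (SE 0.56), also without overlap. In bulk samples such as these, fewer endothelial cells and less RNA per cell cannot be told apart.

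Gja5, connexin 40 of arterial endothelium, read 9059.6, 9338, 1408 and 4516 in SHR and 16218, 19487, 21977 and 10516 in WKY collaterals without overlap, at -1.77 (SE 0.44), or -1.18 without SHR collateral 3. It passed over both vessel types at -1.62 (SE 0.32), but 2 other Gja5 probe sets lay at 0.28 and 0.26. Ptprj, a receptor tyrosine phosphatase that restrains growth factor receptors, had the smallest adjusted p of the averaged test (0.00159, difference -3.12, SE 0.39). Its signals were 244, 71.4, 143 and 46.6 on SHR and 886, 761, 699.9 and 509.6 on WKY collaterals. All SHR arrays were lower, with 2 of 4 SHR collaterals below the 20th percentile of their array, so -2.75 (SE 0.53) rests on an SHR level near background. A second phosphatase of endothelial junctions, Ptprm, passed at -0.95 (SE 0.21).

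Tgfb3 encodes a TGF-beta ligand that promotes matrix deposition. Signals were 3096, 4859.8, 1392 and 8301 on SHR and 10407, 20455, 18705 and 13355 on WKY collaterals, without overlap at -2.06 (SE 0.44), and its second probe set gave -2.20 (SE 0.52). In control arteries the difference was -0.14, with overlapping arrays. The gap between the vessel types was -1.92 (SE 0.64) with an unadjusted p of 0.00759, and no probe set passed that test after adjustment (smallest limma adjusted p = 0.99969), so Tgfb3 is not shown to differ in collaterals alone. Of 26 tested TGF-beta family genes, 7 were lower at an unadjusted p under 0.05 and 0 higher, against 4.1% and 3.66% of all genes. The median was 0.17 with 14 above 0, but -0.05 without SHR collateral 3 and -0.15 with the 3' to 5' covariate. The lower genes included the receptors Bmpr1a (-1.03) and Acvrl1 (-0.79, SE 0.26, no overlap) and Id1, Id2 and Id3, which are induced by BMP signals. Id1 passed over both vessel types at -1.32 (SE 0.23) on one probe set, while its second probe set was higher in SHR collaterals at 1.19 (SE 0.48). Tgfb1 itself overlapped between the strains, at 0.25 without SHR collateral 3.

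Lox, the enzyme that crosslinks collagen and elastin, read 28719, 37390, 9826 and 32115 on SHR and 57712, 61509, 63027 and 81550 on WKY collaterals. All SHR arrays lay below WKY at -1.44 (SE 0.35), or -1.01 without SHR collateral 3, and over both vessel types Lox fell by 1.14 (SE 0.26, limma adjusted p = 0.0382, or 0.0556 with replicates as a random block). Another 3 probe sets had differences of -1.24, -0.91 and -0.25. Among 32 tested matrix genes 5 were lower and 2 higher at an unadjusted p under 0.05, against 4.1% and 3.66% of all genes. Without SHR collateral 3, 2 were lower and 2 higher, where 104 and 87 of all 3825 genes were. The median of the matrix list was -0.05, or 0.06 without SHR collateral 3 and -0.15 with the 3' to 5' covariate. Sdc4, a cell-surface proteoglycan, fell over both vessel types on 2 of 3 probe sets, at -1.04 (SE 0.22) on one of them, and Thbs4, a thrombospondin of tendon and arteries, rose at 1.82 (SE 0.41). The main fibrillar collagens Col1a1 (0.06) and Col3a1 (0.01) and elastin (Eln, -0.08) had collateral differences near 0.

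Smooth muscle contractile genes lay mostly below 0, and the values depended on SHR collateral 3. Of 21 tested, 19 lay below 0 with a median of -0.65, and without that array 16 did, with a median of -0.26. With the 3' to 5' covariate the median was -0.31. Itga7, the laminin receptor of contractile smooth muscle, was separate between strains, with 4143, 2668, 1837 and 4518 in SHR and 6216, 6471, 6742 and 7608 in WKY. Its difference was -1.12 (SE 0.28), against -0.32 and -0.26 on its other probe sets, and it did not pass. Myh11, smooth muscle myosin, read 29376, 34619, 4334 and 39474 in SHR and 38708, 56455, 49035 and 46524 in WKY, so that its -1.21 (SE 0.55) became -0.46 without SHR collateral 3. Acta2, smooth muscle actin, was at -0.34 (SE 0.37), with 70638, 144950, 43348 and 52360 in SHR and 55963, 95314, 114000 and 99227 in WKY, which overlapped. The large-conductance potassium channel Kcnma1 was an exception on the high side at 1.60 (SE 0.61), with overlapping arrays. It was brightest on SHR collateral 3, at 814, and without that array the difference was 1.18.

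**Figure D2:**
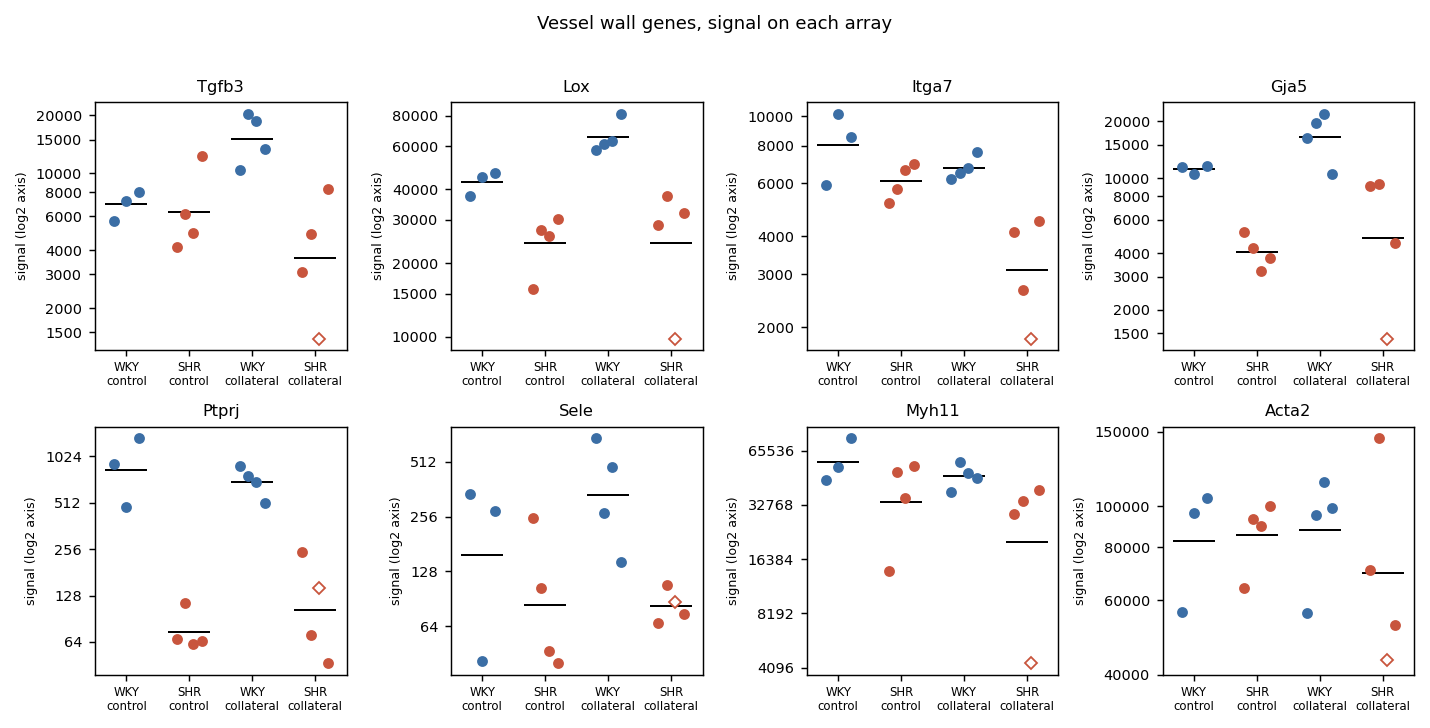
Deposited signal of 8 vessel wall genes on each array (vertical axis, log2 scale), by strain and vessel type; each point is an array, the open diamond is SHR collateral 3 and the line is the mean of the log2 signals. Tgfb3, Lox, Itga7, Gja5, Ptprj and Sele show SHR collaterals below WKY collaterals without overlap, whereas for Myh11 one SHR array at 4334 lies far below the others and Acta2 overlaps broadly.

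Several antigen presentation genes had higher signal in SHR. Cd74, the invariant chain that escorts MHC class II molecules, read 1869, 1245, 2628 and 841 on SHR and 346, 125, 25.5 and 355 on WKY collaterals. SHR was higher on every array at 3.42 (SE 0.83), a ratio of 10.7, and a second probe set gave 3.17 (SE 0.72). Cd74 rose over both vessel types by 3.52 (SE 0.61, limma adjusted p = 0.00643). RT1-Da, a class II alpha chain, had 6804, 4325, 3186 and 4045 in SHR and 1061, 1231, 415 and 865 in WKY collaterals. It did not overlap at 2.42 (SE 0.66) and passed over both vessel types at 3.02 (SE 0.49). Another Cd74 probe set, at 1.62, did not pass.

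Class I genes present peptides on nearly all cells. RT1-A3 read 326, 587, 632 and 320.4 on SHR and 112, 48.1, 46.3 and 19.8 on WKY collaterals, where 3 of 4 WKY arrays were below the 20th percentile of their array. The difference was 3.24 (SE 0.58, limma adjusted p = 0.0783), and RT1-A3 passed over both vessel types with no overlap over the 15 arrays. RT1-CE16 passed at 1.24 (SE 0.26), and Psmb8, an immunoproteasome subunit, was at 1.44 (SE 0.40) with overlap. RT1-A3, RT1-CE16, RT1-Da, RT1-Db1, Psmb8 and the tenascin pseudogene Tnxa-ps1 (2.10, no overlap) lie on 1 chromosome in the RefSeq gene table, and Cd74 and B2m do not. RT1 genes are a family of close copies, so which copy a probe set reads is uncertain. Of the lists as wholes, 3 of 12 class I genes were higher and B2m, the class I light chain, lower (-0.59) at an unadjusted p under 0.05. Of all genes 3.66% were higher and 4.1% lower at that p. The class I median of 0.22 was 0.09 with the 3' to 5' covariate, beside 0.15 for all genes. The class II median of 0.76 over 9 genes became 0.05 without SHR collateral 3.

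**Figure D3:**
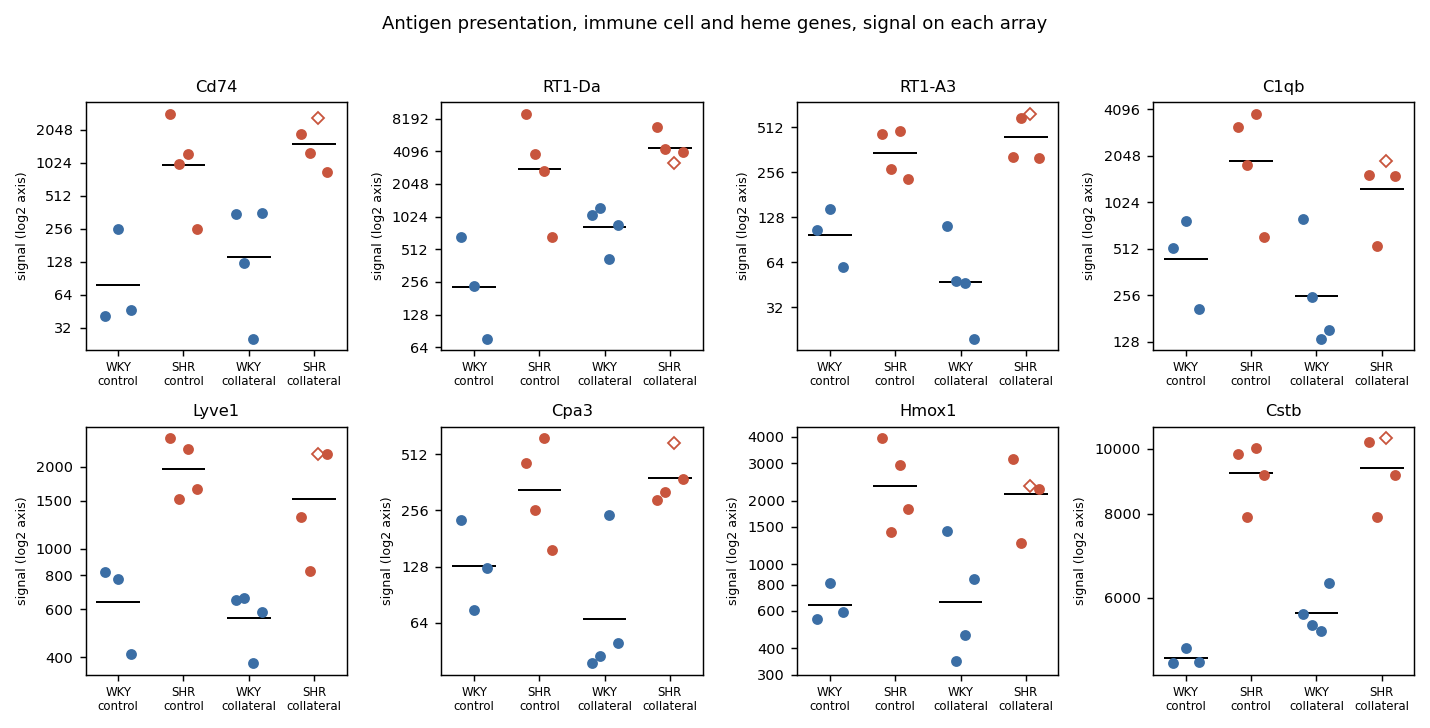
Deposited signal of 8 genes on each array (vertical axis, log2 scale), by strain and vessel type; each point is an array, the open diamond is SHR collateral 3 and the line is the mean of the log2 signals. Cd74, RT1-Da, RT1-A3, Lyve1, Cpa3 and Cstb show all SHR collaterals above all WKY collaterals, while C1qb and Hmox1 overlap.

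Macrophages take part in collateral growth by releasing growth factors and proteases. All 10 tested macrophage markers lay above 0 in SHR collaterals, with a median of 1.05, and 5 were higher at an unadjusted p under 0.05, where 3.66% of all genes were. Of these markers 2, Cd74 and Lgals3, were higher with no overlap, against 1.59% of all genes. Without SHR collateral 3, 9 lay above 0, the median was 0.93 and 3 were higher at that p, where 87 of all 3825 genes were. With the 3' to 5' ratio as a covariate the median was 0.57. Of the 10, 2, C1qb and Cd74, rose over both vessel types, where 0.392% of all genes did. The summed marker signal was 30171, 23026, 40017 and 22939 on SHR collaterals and 11765, 10913, 7373 and 24087 on WKY collaterals, so WKY collateral 4 was within the SHR range. The lysozyme gene Lyz2 gave 16164 of the 24087 on that array, so this overlap depends on Lyz2. Csf1r, Itgam and Cd4, also macrophage genes, were too dim to be tested.

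C1qb, a complement component made by tissue macrophages, read 1543, 533, 1879.7 and 1519.8 on SHR and 791, 251, 134 and 151 on WKY collaterals. Overlap came from SHR collateral 2 and WKY collateral 1, and the difference was 2.30 (SE 0.63), with 2.21 (SE 0.47) over both vessel types. Lgals3, galectin-3 of activated macrophages, was separate at 1.07 (SE 0.37) and did not pass (limma adjusted p over both vessel types = 0.177). Lyz2, lysozyme, was at 1.53 (SE 0.64), with 16730, 12120, 21062 and 12432 in SHR and 4659, 4507, 2224 and 16164 in WKY. WKY collateral 4 was the exception, through the same value that raised the marker sum on that array. Apoe, a lipid carrier that macrophages secrete, rose over both vessel types at 1.47 (SE 0.31), and Maf, a factor of tissue macrophages among other cells, at 2.31 (SE 0.42) on 1 of its 2 probe sets, the other being at 0.33.

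Mast cells store proteases and sit along vessels. Cpa3, mast cell carboxypeptidase, read 292, 323, 591 and 379 on SHR and 38.8, 42.3, 242 and 49.9 on WKY collaterals. It was separate at 2.51 (SE 0.64), but 3 of 4 WKY collaterals were below the 20th percentile of their array, and Cpa3 did not pass. Cma1, a chymase able to form angiotensin II, was separate too at 1.05 (SE 0.36) and rose over both vessel types at 1.19 (SE 0.27). Of 7 tested mast cell genes 3 were higher at an unadjusted p under 0.05 and 0 lower, against 3.66% and 4.1% of all genes. Their median was 0.79, or 0.27 without SHR collateral 3. Mcpt1, Kit, Fcer1a and Ms4a2, further mast cell genes, were too dim to be tested.

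Lyve1, a hyaluronan receptor of lymphatic endothelium and of some macrophages, had 1312, 827, 2222 and 2230.2 in SHR and 648, 662, 379.8 and 585 in WKY collaterals. All SHR arrays were higher at 1.45 (SE 0.36), and Lyve1 rose over both vessel types by 1.54 (SE 0.27) with no overlap over 15 arrays. All 6 tested lymphatic and lymph node genes lay above 0 (median 1.22, and 0.92 without SHR collateral 3). Of them 3 were higher at an unadjusted p under 0.05, against 3.66% of all genes. Without SHR collateral 3, 1 of the 6 was, where 87 of all 3825 genes were. Among genes of surrounding tissue, 12 of 15 adipocyte genes (median 0.97) and 17 of 18 nerve and Schwann cell genes (median 0.55) lay above 0, with 1 and 3 higher at that p. Without SHR collateral 3, 9 of 15 (median 0.78) and 13 of 18 (median 0.38) lay above 0 and 0 were higher at that p in either list. With the 3' to 5' covariate the medians were 0.30 and 0.85. The summed adipocyte signal ran from 16411 to 62637 on SHR and from 12954 to 28415 on WKY collaterals, and the nerve sum from 19860.0 to 30138 and from 14486 to 18104 without overlap. The part of such tissue in the immune and early-response differences was not tested.

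Hmox1, which breaks heme down to biliverdin, iron and carbon monoxide, read 3154, 1263, 2345 and 2267 on SHR and 1437, 348, 460.4 and 847 on WKY collaterals. SHR collateral 2 lay below WKY collateral 1, the difference was 1.69 (SE 0.43), and Hmox1 rose over both vessel types by 1.78 (SE 0.31, limma adjusted p = 0.00643). Blvra, the next enzyme of that path, was separate at 0.68 (SE 0.24) and rose at 0.82 (SE 0.18). Of 24 tested oxidant and antioxidant genes 12 lay above and 12 below 0. At an unadjusted p under 0.05, 2 were higher and 4 lower, against 3.66% and 4.1% of all genes. Without SHR collateral 3 this turned to 4 higher and 1 lower, where 87 and 104 of all 3825 genes were. With that array the lower ones included Gpx1, a glutathione peroxidase (-0.83, or -0.43 without it), and Nfe2l2, the NRF2 factor (-1.30). Of the detoxification enzymes 25 of 32 lay above 0, with a median of 0.57 and 4 higher and 1 lower at that p; without SHR collateral 3 the median was 0.30 and 0 were under it.

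Cstb, an inhibitor of cysteine cathepsins, read 10216, 7912, 10358 and 9146 on SHR and 5675, 5468, 5355 and 6298 on WKY collaterals, at 0.72 (SE 0.20). Every SHR array was above every WKY array, and Cstb rose over both vessel types by 0.81 (SE 0.14) with no overlap over 15 arrays. Its target Ctsb was separate at 0.78 and did not pass. Other genes that rose over both vessel types were Entpd2, which degrades extracellular ATP (1.19, SE 0.20), the flavin monooxygenase Fmo1 (2.25, SE 0.45), the chaperone partner Fkbp4 (1.69, SE 0.31, on 1 of 3 probe sets), Gas7 (0.87, SE 0.16, on 1 of 2) and Apod, a lipid-binding protein (3.72, SE 0.82). Apod no longer passed without SHR collateral 3 (3.46, limma adjusted p = 0.0568).

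Counts for pathways often named in hypertension and collateral growth stand beside 3.66% higher and 4.1% lower of all genes at an unadjusted p under 0.05. Nitric oxide and cGMP genes had a median of -0.19 over 19 genes, or -0.07 without SHR collateral 3 and 0.00 with the 3' to 5' covariate, with 1 higher and 2 lower; Gucy1b1, a subunit of the nitric oxide receptor, was at -1.05 and Ddah1, which breaks down an inhibitor of nitric oxide synthase, at -0.74. Renin-angiotensin genes had a median of 0.43 over 9 genes, or 0.06 without SHR collateral 3, and the angiotensin receptor Agtr1a was at 0.85 with overlap. Angiogenic factors and receptors had 3 higher, Vegfa (1.23, SE 0.43), Flt1 and Igfbp5, and 3 lower, Gja5, Esm1 and Hbegf, of 35. Chemokines and cytokines had a median of 0.00 over 17 genes, or -0.27 without SHR collateral 3 and -0.28 with the 3' to 5' covariate, with 1 higher, Il15. Cell cycle genes had 23 of 28 above 0 and a median of 0.37, with 2 higher, Mcm7 and Racgap1. Without SHR collateral 3, 18 lay above 0 with a median of 0.25, and with the 3' to 5' covariate the median was -0.02.

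**Figure D4:**
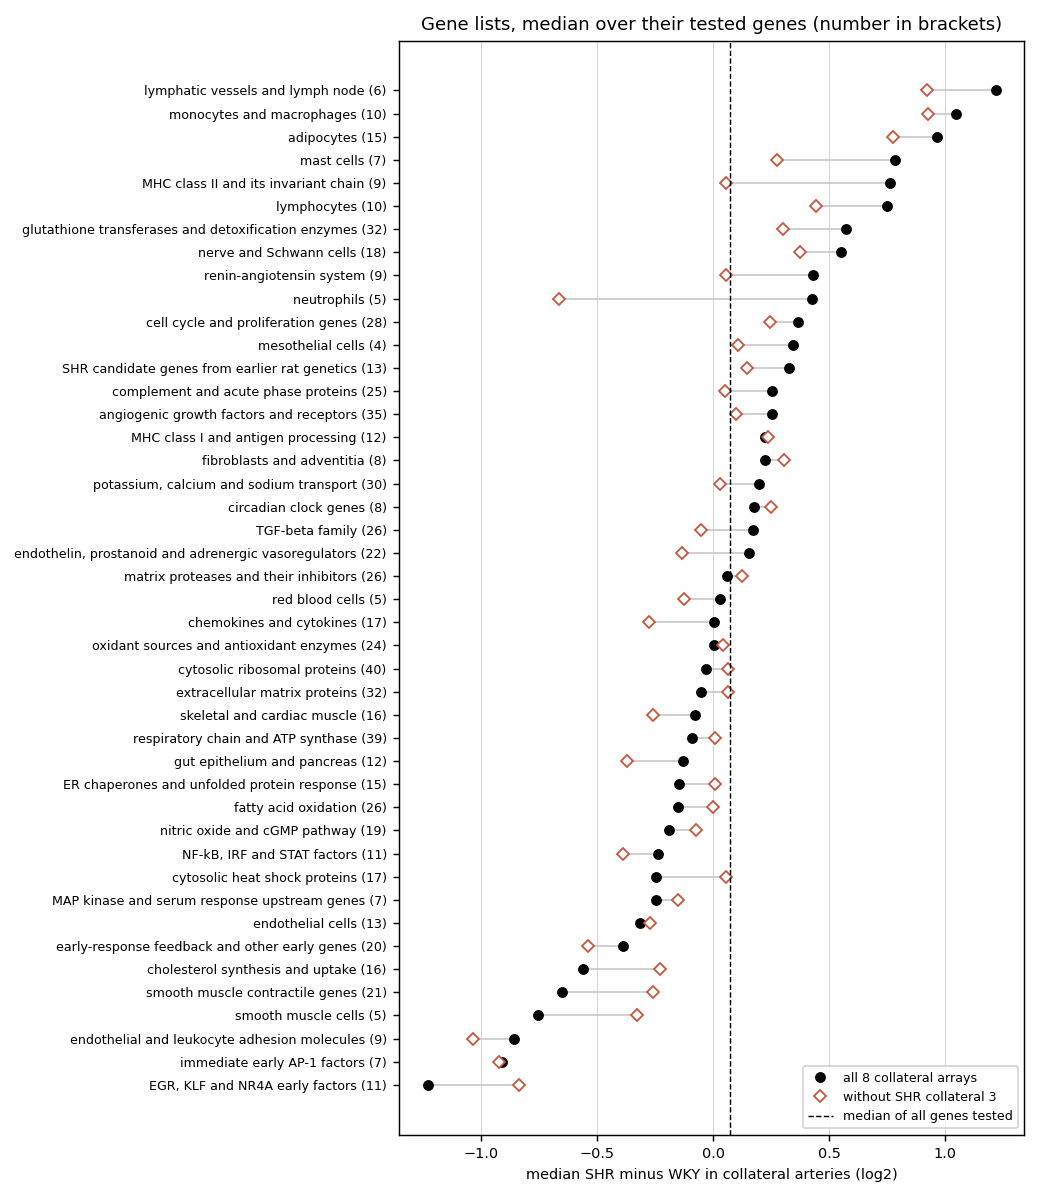
Median SHR minus WKY difference (log2, horizontal axis) in collateral arteries for each gene list, with the number of tested genes in brackets; filled circles use all 8 collateral arrays, open diamonds leave out SHR collateral 3 and the dashed line is the median of all genes tested. EGR, KLF and NR4A factors, AP-1 factors and adhesion molecules lie lowest in both, lymphatic and macrophage genes highest, and neutrophil genes move from 0.43 to -0.67 without that array.

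The strain difference in collaterals was set beside that in control arteries, which were measured on other arrays but may come from the same rats. Over the 6512 probe sets, which are not independent of each other, the differences in collateral and control arteries correlated at 0.352 by Pearson's r and 0.282 by Spearman's rho, given as a description. Of the 496 that were below an unadjusted p of 0.05 in collaterals, 423 had the same sign in control arteries, 142 of them also at that p, and 1 was at that p with the opposite sign. All 58 probe sets of the averaged test were at an unadjusted p under 0.05 in control arteries, and 56 were in collaterals. In collaterals 45 were separate between the strains, where 1.59% of all genes were separate and higher and 1.73% separate and lower. The 58 were chosen by the mean of both differences, so these counts follow largely from that choice. The control arteries alone called 2 probe sets, Icam2 and Ptprj, both lower in SHR. No probe set passed the test of a difference between the vessel types by limma, and 124 were at an unadjusted p under 0.05 where 325.6 would be counted by chance. Fosl1, Esm1, Erbb2, a growth factor receptor, and Mgat1, a glycosylation enzyme read here on 1 of its 3 probe sets, had control differences of -0.61, -0.26, -0.09 and -0.20 beside collateral differences of -2.05, -1.40, 1.87 and 1.71, none with an adjusted difference.

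**Figure D5:**
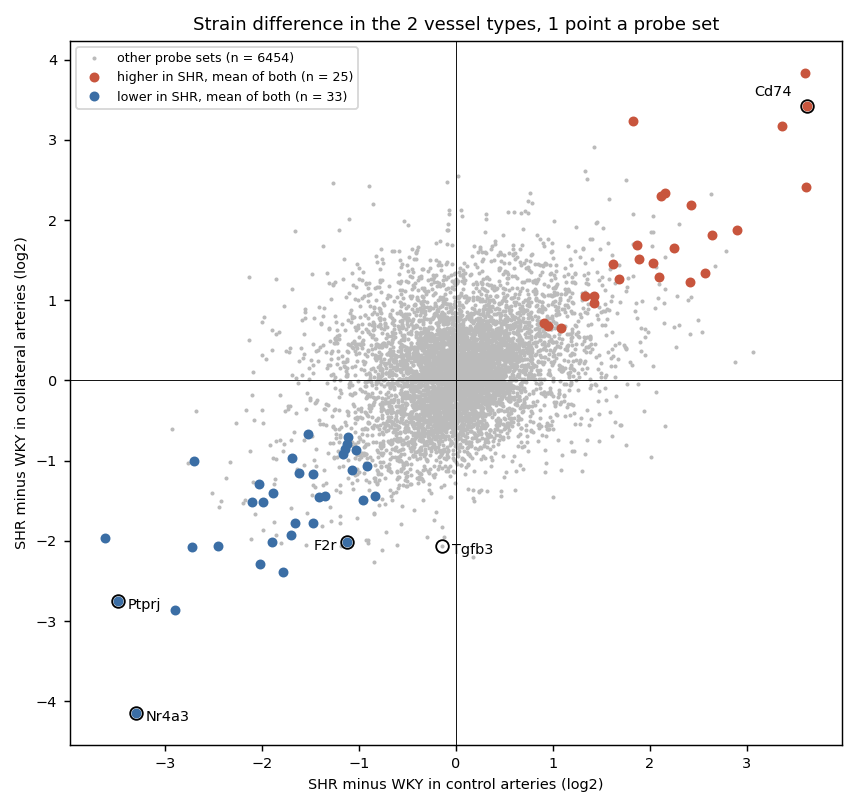
SHR minus WKY difference (log2) of each probe set in control arteries (horizontal axis) and collateral arteries (vertical axis); red and blue points are the 25 higher and 33 lower probe sets of the averaged test and grey points the others. The called probe sets were chosen by the mean of both differences, so they lie in the corners where both differ the same way. Tgfb3 lies at -2.06 in collaterals and -0.14 in control arteries.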

How the data were processed

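Total RNA of rat mesenteric arteries was labelled with biotin and hybridised to Affymetrix arrays of 8799 probe sets. The authors deposited 1 linear signal per probe set and array, made with GCOS and MAS5 per the submitters' processing notes; versions and other settings were not stated there. The deposited signals were scaled to a common level: their trimmed means lay between 980.6 and 993.1. They were used with no further normalization, set to at least 1 (12 values were below it) and put on the log2 scale. After 59 control probe sets were left out, the 6512 at or above their array's 40th percentile on at least 3 of 15 arrays were tested.

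A mean for each of the 4 groups was fitted over 15 arrays with limma 3.58.1 in R 4.3.3 (lmFit, eBayes with a variance trend, 11 residual degrees of freedom), and p-values were adjusted by the Benjamini-Hochberg method over all 6512. The strain difference was tested in collateral arteries, in control arteries, as their mean, and as the difference between them. Precision is set by how few arrays there are; the median standard error of the collateral difference was 0.498 on the log2 scale. The fit was tested on simulated data. Symbols came from the platform annotation (7006 probe sets with 1 symbol, 308 with several, 1426 with none), and 6985 matched the RefSeq gene table; probe sets with several symbols are not named.

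Named genes were the 12 per direction with the smallest collateral p, up to 4 members by p of each list with a member at an unadjusted p under 0.05, a set chosen by name, and up to 15 calls per direction of the averaged test; other list members are given to describe a list. Other genes were added once their values had been seen, among them Lyz2, Apoe, Blvra, Klf9, Klf10, Ptprm and some second probe sets of named genes. Apod, a call of the averaged test outside those 15, was added in the same way. The samples, gene lists and tests were chosen with earlier results of these data known. Alternatives were quantile normalization, equal array medians, an added constant, other filters, no variance trend, array weights, the 8 collateral arrays alone, replicate blocks, Welch's test, each array left out and, added after the data were seen, the 3' to 5' ratio as a covariate and array weights without SHR collateral 3.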

Additional observations from a re-analysis of the deposited data

Results flagged for a closer look

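In 6 of 118 groups of 4 collateral arrays checked, 1 array lay far from the other 3, by Dixon's ratio of its gap to the group's whole range; chance gives about 1 in 20 such groups. Of the 6, 2 were due to SHR collateral 3. Myh11 read 4334 there and 29376 to 39474 on the other SHR collaterals (ratio 0.866), and Pde4b read 1200.0 against 3951 to 4451 (ratio 0.909). Icam1 was lowest on SHR collateral 4, at 2042 against 3206 to 3438 (ratio 0.866). C1qb was lowest on SHR collateral 2, at 533 against 1520 to 1880 (ratio 0.831).

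On the WKY side, Egr1 was highest on WKY collateral 1, at 18271 against 8167 to 9124 (ratio 0.862), on the probe set that passed over both vessel types. Cpa3 was highest on WKY collateral 3, at 242 against 38.8 to 49.9 (ratio 0.863).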

How the results depend on the processing

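SHR minus WKY in collateral arteries gave 0 calls, and it gave 26 with array weights, 66 with array weights and SHR collateral 3 left out, 2 from the 8 collateral arrays alone and 6 at an adjusted p of 0.10. With each array left out in turn it called 0 to 7, with 7 without SHR collateral 4, 4 without SHR collateral 2, 2 without WKY collateral 1 and 1 each without SHR control 1 or 2. SHR minus WKY in control arteries gave 2 calls, and it gave 0 with no filter, with the 60th percentile filter, with Welch's test and with the 3' to 5' ratio as a covariate. It called 1 with no variance trend, 14 with array weights, 9 with weights and SHR collateral 3 left out, and 0 to 6 with 1 array left out (6 without SHR control 4). The 58 calls of SHR minus WKY, mean of both vessel types, became 38 with equal array medians, 34 with no variance trend, 184 with array weights, 220 with weights and SHR collateral 3 left out, 2 with Welch's test, 3 with the covariate and 119 at an adjusted p of 0.10. With 1 array left out they ranged from 30 (without SHR control 3) to 101 (without SHR control 4), and 27 of the 58 were called in every such fit. The difference between vessel types gave 0 calls under every alternative. Acta2 turned positive with the covariate, at 0.14 in collaterals and 0.16 in the mean. The cause of these shifts was not tested.

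Of 1589 values of the 59 named probe sets in the mean of both vessel types under alternatives, 1299 kept their direction and side of the threshold, 235 no longer passed and 54 came to pass. No named probe set passed in collaterals, so none could lose a call there; 57 of 1648 values came to pass. Of 264 list medians, 17 moved by more than the spread between replicates. Replicate numbers were not taken to pair the samples: deviations of same-numbered SHR and WKY collaterals correlated between 0.042 and 0.308, and those of differently numbered ones between -0.362 and 0.427. Same-numbered control and collateral arrays correlated between 0.016 and 0.306 in WKY (-0.269 to 0.113 for different numbers) and between -0.070 and 0.080 in SHR. These values cover all tested probe sets, and some early genes followed the number. Nr4a1 read 3406, 25194, 9380 and 9109 on SHR controls 1 to 4 and 1370, 15232, 7795 and 7320 on SHR collaterals 1 to 4. Klf6 did not, at 1218, 1335, 1705 and 1349 on those controls and 443, 1909, 1246 and 2175 on those collaterals. Whether same-numbered arrays share a rat is not known. With the fixed replicate block, 6 probe sets were called in collaterals, 5 in control arteries and 136 in the mean. With a random replicate block (correlation 0.0945), 0, 2 and 49 were called, and Lox, Nfkb1, Icam1, Arc, Ptprm and Thbs4 were among the 9 of the 58 that were lost.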
